A study of Mus musculus with 2 samples.

Results

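A set of 5 microRNA genes that lie inside genes of the extracellular matrix, the skeleton or guidance signalling was examined among the 2202 microRNA genes counted in C2C12 myocytes. The 5 genes were taken by name: Mir140 in Wwp2, Mir149 in Gpc1, Mir455 in Col27a1, Mir218-1 in Slit2 and Mir218-2 in Slit3. The rule for the choice used no counts, but earlier results of these data were known when it was made. All 5 were found in the count tables. The cells came from the mouse myoblast line C2C12, started from crushed thigh muscle of C3H mice, and had been differentiated for 72 h. The study has 1 group, with 2 libraries labelled biological replicates 1 and 2. Both derive from the same line, and the labels do not say whether the cultures were separate, so the spread between them may be technical. Undifferentiated cells were not analysed here, so no value below is a change upon differentiation.

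A microRNA gene is transcribed as a hairpin, from which a short strand is cut out of the 5p or the 3p arm and loaded into a silencing complex. Bases 2 to 8 of that strand, the seed, pair with target transcripts. Hairpins inside introns are commonly transcribed together with their host gene. miR-140 is best known from cartilage, where its host Wwp2, a ubiquitin ligase gene, is active under the chondrocyte factor Sox9. miR-455 shares that tissue: its host Col27a1 encodes a fibrillar collagen of cartilage. Gpc1 encodes glypican-1, a heparan sulfate proteoglycan of the cell surface. Slit2 and Slit3 encode secreted guidance ligands of the Robo receptors, and their microRNA, miR-218, is known for its abundance in motor neurons and for targeting Robo1.

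The mature strands are shown because they separate the 3 single-locus microRNAs from the 2 copies of miR-218, and that difference sets how far each count can be read. The sequences are from RefSeq (build GRCm38.p6), 5′ to 3′, with the seed in capitals, and all 5 genes matched that table. miR-140-5p is named only.
miR-140-3p: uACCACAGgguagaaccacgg
miR-149-5p: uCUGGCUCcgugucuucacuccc
miR-149-3p: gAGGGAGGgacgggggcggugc
miR-455-5p: uAUGUGCCuuuggacuacaucg
miR-455-3p: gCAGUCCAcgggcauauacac
miR-218-5p, both copies: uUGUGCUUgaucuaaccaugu
miR-218-1-3p: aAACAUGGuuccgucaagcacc
miR-218-2-3p: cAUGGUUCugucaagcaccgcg
The 8 distinct strands had 8 different seeds, so the 5 genes form no seed family apart from the shared 5p strand of the miR-218 copies. Among the 1679 mature microRNAs of the table, the seed of miR-140-3p recurred in 1 other, miR-497b. The seed of miR-149-3p recurred in 3 others, and those of miR-149-5p and miR-455-3p in none. The 3p strand of miR-149 was the richest in G and C, at 81.8%, against 60.9% for its 5p strand and 38.1% for miR-218-5p.

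The 5p strand of miR-218 is the same 21 bases at both loci. It starts at base 25 of each hairpin and lies in a stretch of 22 bases that the hairpins have in common. A read of this strand alone therefore fits both copies. The 3p strands differ: aligned without gaps, with miR-218-2-3p starting 3 bases further on, they overlap over 19 bases with 1 difference, C12U, counted from 1 at the 5′ end of miR-218-1-3p. In each of the 2 hairpins, 3 of 91 windows of 20 bases also occur in the other copy, and in no other hairpin. No window of 20 bases of Mir140, Mir149 or Mir455 occurs in another annotated microRNA hairpin. Among all 314 detected genes (at least 10 counts in each library), 80 hairpins (25.5%) share such a window.

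All 5 hairpins lie on the strand of their host gene and in an intron of its longest coding transcript (GENCODE M21, mm10). Mir140 (ENSMUSG00000065439.1) lies at chr8:107551244-107551313 in intron 16 of Wwp2, 94.0% of the way along the gene. In 1 of the 4 annotated Wwp2 transcripts that span it, a retained-intron transcript, the hairpin is exonic. Mir149 (ENSMUSG00000065470.1) lies at chr1:92850378-92850443 in the first intron of Gpc1, an intron of 21249 bases. Mir455 (ENSMUSG00000070102.1) lies at chr4:63256851-63256932 in intron 10 of Col27a1, with only 127 bases between its end and the next exon. The miR-218 loci sit in the same numbered intron of their paralogous hosts: Mir218-1 (ENSMUSG00000065603.1) at chr5:48223942-48224051 in intron 14 of Slit2, and Mir218-2 (ENSMUSG00000065583.1) at chr11:35616816-35616925 in intron 14 of Slit3. Both of these hosts have 36 exons in the transcript used.

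**Figure D1:**
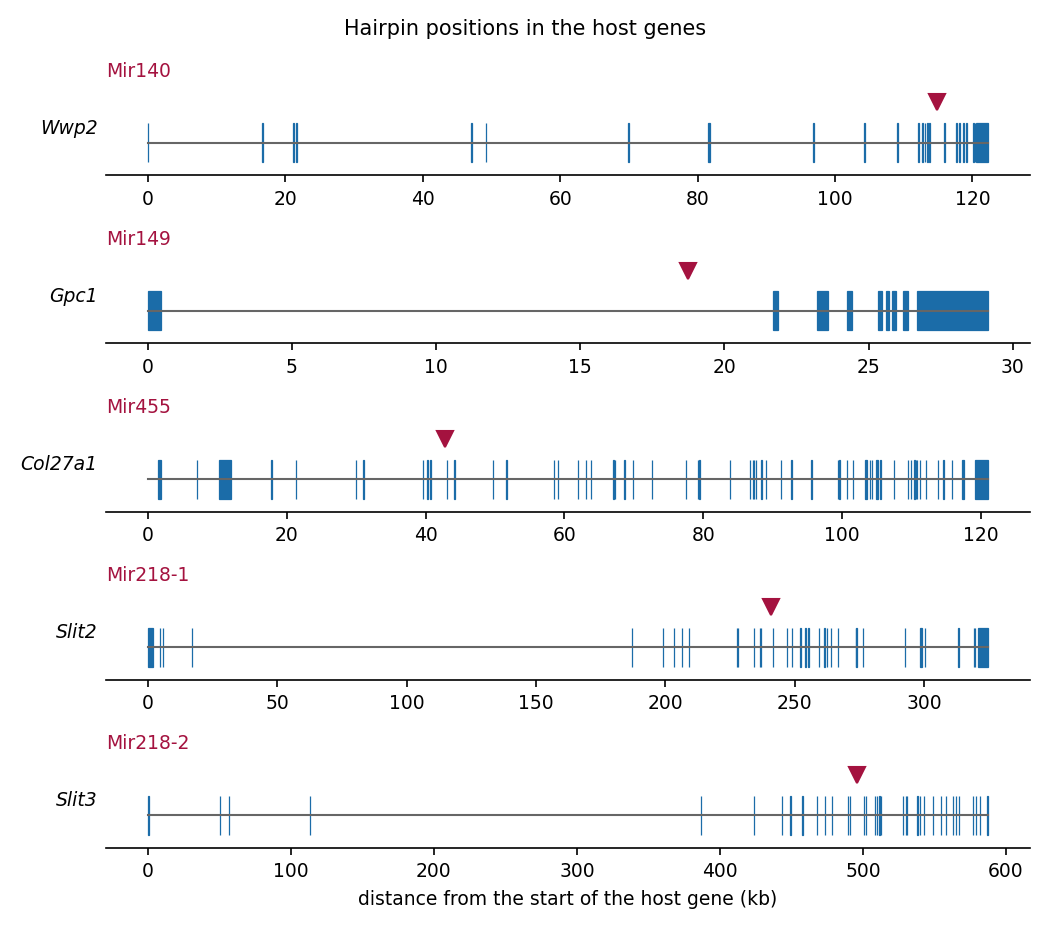
Each panel draws one host gene to its own scale, with the distance from the gene's start in kb on the horizontal axis, exons of the longest coding transcript as boxes and the hairpin as a triangle. Every hairpin falls between exons, from 35.4% of the gene's length in Col27a1 to 94.0% in Wwp2.

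None of the 5 hairpins has another annotated microRNA gene within 10 kb, as against 547 of all 2202 genes (24.8%) and 131 of the 314 detected ones (41.7%) that do. The hairpin of Mir149 had 68.2% G and C, more than 95.6% of all measured hairpins. The predicted folding energies were −39.1 kcal/mol for Mir140, −36.7 for Mir149, −36.5 for Mir455, −36.6 for Mir218-1 and −42.3 for Mir218-2. Per base, the folds of Mir140 and Mir149 were more stable than 93.8% and 93.4% of all measured hairpins, and that of Mir218-1 than 38.6%.

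The libraries held 7581366 and 9865298 counts assigned to the sense strand of microRNA genes, in replicates 1 and 2. The myocyte label was checked against muscle microRNAs: Mir206, restricted to skeletal muscle, had 2584038 and 4111798 counts, and the 8 muscle markers together took 39.2% ± 5.16 of the counts (SD, n = 2), nearly all of it from Mir206. The Mir1a and Mir133a genes, which share sequence with other hairpins, had means of only 1.03 to 3.02 CPM. Of 8 neuronal markers 5 were at 0 in both libraries, all 3 Mir124a genes among them. All 5 share sequence with other hairpins, so a 0 there may not mean absence. The neuronal sums, 653 and 877 counts, came almost wholly from Mir153 (640 and 865). The 5 blood markers summed to 794 and 1809 counts, mostly from Mir142 (675 and 1752). The 6 epithelial markers summed to 66 and 54, and the hepatocyte marker Mir122 had 8 and 4. The endothelial marker Mir126a had 1646 and 423. Levels below are in CPM, the count of a gene per 1000000 counts that its library gave to microRNA genes, and an error is the SD of n = 2 libraries unless it is called an interval.

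The 5 genes together took 1.77% ± 0.182 of the assigned counts, and nearly all of that came from 2 of them. Mir140 and Mir149 made up 99.7% of the group's counts in each library. Mir455 was more than 100 times rarer than either. Both miR-218 copies had fewer counts still, but reads that fit both copies were given to neither. Of the 5 genes, 4 were detected. Mir218-2 was not. A hairpin count does not separate the 5p from the 3p strand, so no value below belongs to one arm.

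Mir140, the microRNA of the Wwp2 locus, had 84554 counts in replicate 1 and 82262 in replicate 2. These are 11153 and 8339 CPM, with exact binomial 95% intervals of 11078 to 11228 and 8282 to 8395. The mean was 9746 ± 1990 CPM, rank 15 of all genes, higher than 95.2% of the detected genes. Replicate 1 was the higher library, and the counting intervals did not overlap. Intervals of this kind cover counting error only. They also treat each read as an independent molecule, so they may be too narrow.

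Mir149, the glypican-1 microRNA, had 58682 and 78869 counts, or 7740 and 7995 CPM. The mean of 7867 ± 180 CPM gave it rank 19. With library totals as scaling the libraries were nearly level, with a coefficient of variation of 2.29%, against a median of 24.5% over the detected genes. That coefficient was 6.54% in the either-strand counts, 7.89% with all reads as denominator and 10.9% with totals that leave out Mir206.

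Mir455, the collagen-hosted microRNA, had 448 and 386 counts, or 59.1 and 39.1 CPM. Its mean of 49.1 ± 14.1 CPM gave rank 159, close to the middle of the detected genes (higher than 49.4% of them). Replicate 1 was again the higher library.

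Mir218-1, in Slit2, had 38 counts in replicate 1 and 84 in replicate 2, or 5.01 and 8.51 CPM. The mean was 6.76 ± 2.48 CPM (rank 234). Mir218-2, in Slit3, had 5 and 2 counts, or 0.660 and 0.203 CPM, with exact binomial 95% intervals of 0.214 to 1.54 and 0.0246 to 0.732. Replicate 2 was the higher library for the Slit2 copy and replicate 1 for the Slit3 copy. The 2 intervals of Mir218-2 overlap. The limit that a count of 0 allows, 3 counts (0.396 and 0.304 CPM), does not apply to it, since both libraries held reads.

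**Figure D2:**
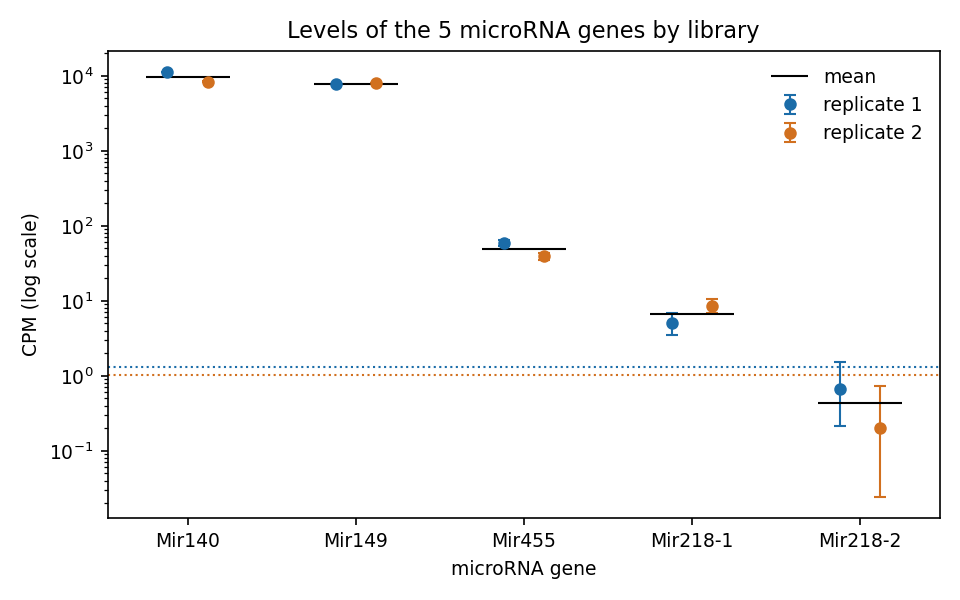
Points give the level of each gene in each library in CPM on a log axis, with exact binomial 95% intervals, horizontal bars the mean of the libraries and dotted lines the level of 10 counts in each library. Mir140 and Mir149 sit between 7740 and 11153 CPM, Mir455 at 59.1 and 39.1 CPM, and Mir218-2 lies below both dotted lines.

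The order of the levels by mean was Mir140, Mir149, Mir455, Mir218-1 and Mir218-2, and each of the 4 neighbouring pairs kept its order in both libraries. The places of the miR-218 copies hold only for reads unique to one copy. No test between genes was made. The closest pair was Mir140 and Mir149. Of the counts of these 2 genes, Mir140 held 59.0% in replicate 1 (exact binomial interval 58.8% to 59.3%) and 51.1% in replicate 2 (50.8% to 51.3%), or 1.44 and 1.04 times the count of Mir149. Scaled per 100 bases of hairpin, Mir140 had 15933 and 11912 CPM and Mir149 had 11728 and 12113 CPM. On that scale Mir140 was 1.36 times Mir149 in replicate 1 and 0.983 times in replicate 2, so the order of the leading pair depends on the scale and is not settled by these libraries.

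The remaining steps were wide. Mir149 had 131 times the counts of Mir455 in replicate 1 and 204 times in replicate 2. Mir455 had 11.8 and 4.60 times those of Mir218-1, whose count leaves out reads that fit both miR-218 copies. Of the counts given to the miR-218 copies, Mir218-1 held 88.4% (38 of 43; exact binomial interval 74.9% to 96.1%) and 97.7% (84 of 86; 91.9% to 99.7%), a mean of 93.0% ± 6.58. Summed, the copies reached 5.67 and 8.72 CPM. Reads that fit more than 1 place were given to no gene and made up 22.0% and 17.9% of all reads. How many of them were miR-218-5p was not tested, so the sum is a count of the reads unique to one copy, not the level of miR-218, and the share of Mir218-1 holds for those reads alone.

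Reads on the strand opposite the 5 hairpins were nearly absent: 1 read at Mir140 in replicate 2 and 0 elsewhere. No protein-coding gene lies on the opposite strand over any of the 5.

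The only comparison that the study allows is between the replicates. Mir140 and Mir455 were higher in replicate 1, and Mir149 and Mir218-1 were higher in replicate 2, each by less than 2-fold. An exact binomial test (two-sided, p-values adjusted by Benjamini-Hochberg over the 314 detected genes) called all 4 detected members at a threshold of 0.05. That test also called 209 of 314 genes (66.6%), 38.2% as higher in replicate 1 and 28.3% as higher in replicate 2, so a call does not set the members apart. The share of genes called was 40.9% with a minimum of 1 count and 88.8% with a minimum of 100. The lean toward replicate 1, 120 genes against 89, was 109 against 99 with TMM factors and turned to 104 against 110 with totals that leave out Mir206. The test covers counting error only and compares libraries, not conditions.

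Mir140 was 1.34-fold higher in replicate 1 (exact binomial 95% interval 1.32 to 1.35), with an adjusted p too small for the software to represent. Mir455 was 1.51-fold higher there (1.32 to 1.73; adjusted p = 6.9e-09 in the exact binomial test). Mir149 was 1.03-fold higher in replicate 2 (1.02 to 1.04; adjusted p = 6.6e-09, exact binomial test). The call for Mir149 thus concerned the smallest difference of the 4, with 58682 and 78869 counts behind it. Mir218-1 was 1.70-fold higher in replicate 2 (1.15 to 2.56; adjusted p = 0.0097, exact binomial test). Mir218-2, below the minimum of 10 counts, had a ratio of 3.25 toward replicate 1 with an interval of 0.533 to 34.2, and its direction is not set by these counts.

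The median size of the log2 ratio was 0.51 over the 4 detected members and 0.51 over all detected genes. All 4 lay within 2-fold, as did 78.0% of all detected genes. The direction of each of the 4 was the same with TMM factors, with DESeq2 size factors and with totals that leave out Mir206, the gene with the most counts. Leaving out Mir206 moved every log2 ratio by −0.18, to 0.24 for Mir140, −0.22 for Mir149, 0.42 for Mir455 and −0.94 for Mir218-1. The median over all detected genes moved with it, from 0.09 to −0.09. Mir126a, the endothelial marker, stood at 217 CPM in replicate 1 and 42.9 in replicate 2, the same direction as Mir140 and Mir455. Of the 2 detected blood markers, 1 went each way. Mir142 stood at 89.0 and 178 CPM, the same direction as Mir149 and Mir218-1. Mir451a stood at 11.9 and 3.65 CPM, the same direction as Mir140 and Mir455. Their part in these differences was not tested.

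**Figure D3:**
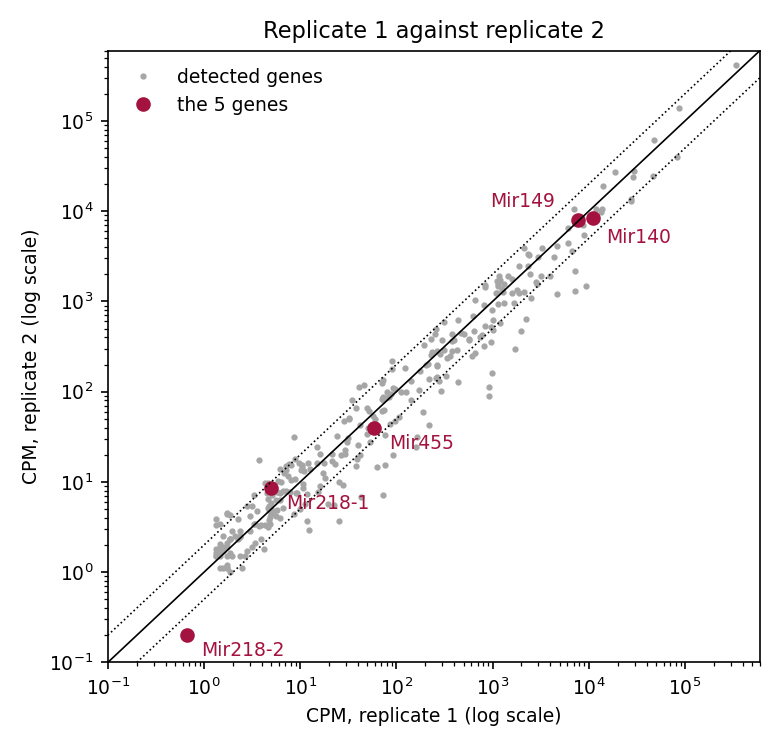
Each grey point is 1 of the 314 detected genes, with CPM in replicate 1 and replicate 2 on log axes, the solid line marks equal levels and the dotted lines 2-fold differences. Red points mark the 5 genes: the 4 detected ones lie between the dotted lines, and Mir218-2 lies beyond the lower one at 0.660 and 0.203 CPM.

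**Figure D4:**
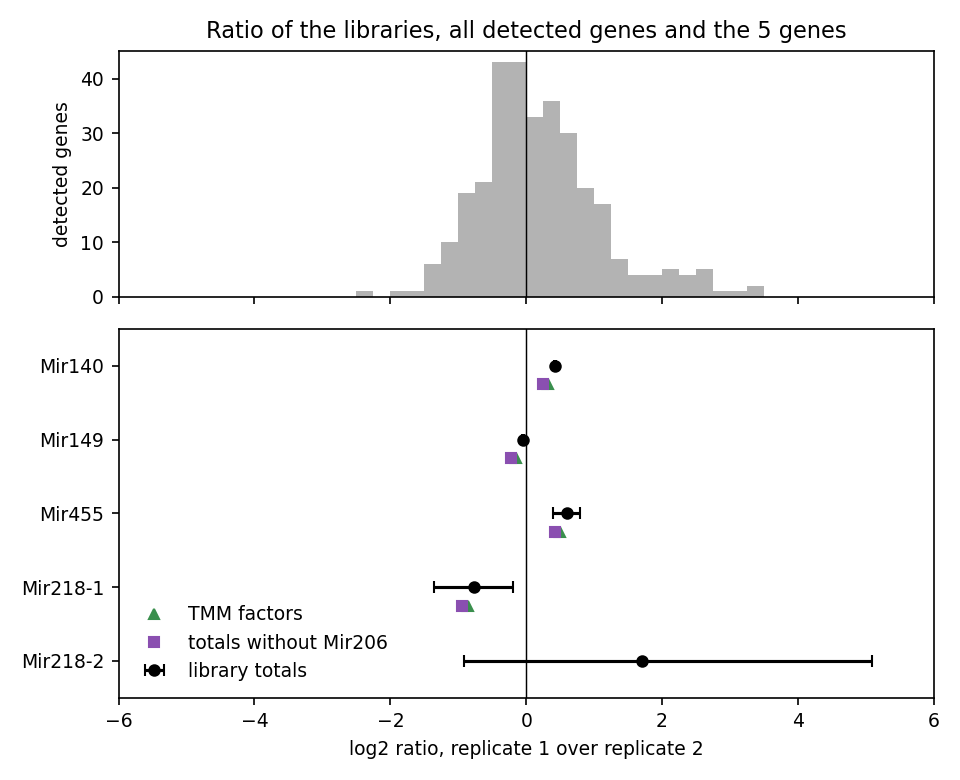
The upper panel is a histogram of the log2 ratio of replicate 1 over replicate 2 for the 314 detected genes, and the lower panel gives the 5 genes with library totals (circles, exact binomial 95% intervals), TMM factors (triangles) and totals without Mir206 (squares). The interval of Mir218-2 spans 0, and the other scalings shift the remaining 4 genes to the left without a change of side.

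By level over the 2 libraries (Euclidean distance of log2(CPM + 1)), the genes nearest to Mir140 were Mir99b (distance 0.35; 11805 and 10530 CPM) and Mir23b (0.35; 13280 and 9884 CPM). Nearest to Mir149 were Mir100 (0.07; 8135 and 8073 CPM) and Mir27b (0.23; 8643 and 7106 CPM). Mir455 stood beside Mir3061 (0.23; 50.3 and 39.9 CPM) and Mirlet7c-2 (0.33; 60.4 and 49.3 CPM). Nearest to Mir218-1 were Mir1b (0.20; 4.62 and 9.73 CPM) and Mir6923 (0.21; 4.48 and 7.50 CPM). Mir23b, Mir27b and Mirlet7c-2 share windows of 20 bases with other hairpins, so their counts are uncertain. A likeness over 2 libraries places a gene by level and says little else.

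Among all 969 microRNA genes inside a protein-coding gene on the same strand, 171 (17.6%) were detected, and Mir140 and Mir149 held positions 6 and 8 by mean CPM. Mir455 held position 83, Mir218-1 position 124 and Mir218-2 position 269. Other hosts were then picked by the letters of their symbol, meant to cover matrix, proteoglycan and guidance genes. The letters also took in Adam8, Adam12, Adam19, Adam22, Itga5, Loxl2, Loxl3 and Chst3, so the set is wider than that class. It held 16 further microRNA genes. Of these 16 genes 2 were detected (12.5%, against 14.3% of all 2202 genes), and 9 were at 0 in both libraries (56.2%, against 67.8% of all genes); 3 of the 9 share sequence with other hairpins. Their counts summed to 54 and 64, against 143727 and 161603 for the 5 genes described here.

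The 2 detected genes of that class, named after their values were seen, were Mir7018 in Hspg2, the perlecan gene, and Gm47302 in the collagen gene Col3a1. Mir7018 had 37 and 34 counts (4.16 ± 1.01 CPM), and Gm47302 had 11 and 16 (1.54 ± 0.121 CPM). Neither differed between the libraries beyond counting error in the exact binomial test (adjusted p = 0.20 and 0.89). Mir717 and Mir6384, in the glypican gene Gpc3, and Mir711, in the collagen gene Col7a1, were at 0 in both libraries. So was Mir691, in the Slit receptor gene Robo2. One of the 16, in Sdccag8, was caught by its letters and is in no syndecan gene. It had 0 counts.

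A list of 12 other microRNAs described in chondrocytes or osteoblasts was set beside the 5 genes. Of the 12, 7 were detected (58.3%, against 14.3% of all 2202 genes). Mir1247, Mir2861 and Mir3960 were at 0 in both libraries. Mir3960 shares sequence with another hairpin, so its 0 is uncertain. The median of the list was 8.70 CPM, against 49.1 CPM for the 5 genes and 0 over all measured genes. Mir27b led with 7874 ± 1086 CPM, at the level of Mir149, followed by Mir335, from the imprinted gene Mest, with 4636 ± 3506. Mir145a had 2193 ± 419 CPM, Mir181a-1 had 472 ± 129, Mir675, cut from the long noncoding RNA H19, had 286 ± 74.0, and Mir199a-1 had 11.2 ± 5.71. Mir27b, Mir181a-1 and Mir199a-1 share sequence with other hairpins and are uncertain. The 7 detected genes included 4 that were higher in replicate 1 and 2 that were higher in replicate 2 by the exact binomial test. Over all 314 detected genes, the test called 38.2% as higher in replicate 1 and 28.3% as higher in replicate 2. Only Mir27b of these 12 was as abundant as Mir149 by mean CPM, and none was as abundant as Mir140.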

How the data were processed

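Each deposited table holds whole-number read counts per microRNA gene for 1 of 2 libraries, with no sign of scaling by the authors in the values. Per the labels' protocols, adapters were trimmed. The deposited notes name mm10 and GENCODE M21. The choice of aligner and counting program was not given in the sources used here. With 3 count columns and 4 summary entries, the tables have the layout of STAR gene counts, so counts were read as uniquely mapped reads. The sense-strand column was used and library sizes exclude the 4 entries. The libraries had 15349205 and 18450359 reads, of which 49.4% and 53.5% were assigned. In replicates 1 and 2, 22.7% and 23.1% were unmapped and 5.88% and 5.57% fell on no microRNA gene.

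CPM, the exact binomial test (scipy 1.17.1) on genes with at least 10 counts in each library and exact intervals at 95% were computed from these counts. The test was tried on simulated counts that held counting error alone, so the trial cannot show how it behaves with variation between libraries. Hairpins were folded with RNAfold 2.7.2. TMM factors (edgeR 4.0.16), DESeq2 1.42.0 size factors, totals without Mir206, all reads as denominator, either-strand counts, minimums of 1 and 100 counts, removal of hairpins that share 20 bases, and each replicate alone were tried as alternatives. With 1 group no model with replicates could test a condition. The genes named are the 5 members, the 2 genes nearest to each detected member, and members of the host class and of the skeletal list with a mean of at least 10 CPM. Genes of the marker lists, and genes of the host class and skeletal list below that mean, are named outside this rule, chosen after their values were seen. Members, lists and marker lists (muscle, neuron, endothelium, blood, epithelium, hepatocyte) were chosen with earlier results of these data known.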

Additional observations from a re-analysis of the deposited data

Results flagged for a closer look

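Reads that fit more than 1 place, which enter no gene level here, numbered 3378438 in replicate 1 and 3295854 in replicate 2. These are totals over all reads of each library, whether or not from microRNAs, and not a level of any gene. They are named because the 5p strand of miR-218 is the same at both of its loci. The deposited tables do not say from which genes these reads came, or how many came from microRNAs.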

How the results depend on the processing

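Of 63 alternative values 12 came from 1 library alone and 11 were ratios whose size the setting cannot change, so neither bears on stability. Of the other 40, 30 stayed the same and 10 moved. Staying meant keeping the direction, the side of the threshold or a value within 1 SD. For the count of genes that differ, it meant a value within a set fold of the main one. The 30 include the share of Mir218-1 in the either-strand counts. That share could not change, because neither copy had reads on the opposite strand. No ratio between the libraries reversed, and no called member lost its call. The count of genes that differ ranged from 154 to 227, against 209. With all reads as denominator the levels fell to 4984 CPM for Mir140, 4049 for Mir149, 25.1 for Mir455 and 3.51 for Mir218-1, and with totals without Mir206 they stood at 15609, 12725, 78.4 and 11.1. In the either-strand counts, which have smaller totals, Mir149 stood at 8996 CPM. These changes follow from the denominators. Per 100 bases of hairpin, 3 of 4 neighbouring pairs kept their order in both libraries; the exception was Mir140 and Mir149. Each replicate alone gave a level within 1 SD of the mean, which holds by construction for 2 libraries, and leaves no ratio. The minimum of 100 counts left Mir218-1 without a value, as did removal of hairpins that share 20 bases. Mir218-2 had a value in the ratio test only with a minimum of 1 count (adjusted p = 0.42, exact binomial test). No paired analysis was possible because the series has 1 group. Counts of 2 to 84 limit both miR-218 copies.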
